A study of Mus musculus with 27 samples.

Results

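The Hox genes encode homeodomain transcription factors that lie in 4 clusters, Hoxa, Hoxb, Hoxc and Hoxd. Along each cluster the genes are numbered from the anterior end, and in the embryo low-numbered genes are expressed from further forward in the body axis than high-numbered ones. Fibroblasts keep much of this pattern in culture, so the set of Hox genes that a fibroblast transcribes is known as a positional code. All genes with a single symbol of the form Hoxa, Hoxb, Hoxc or Hoxd plus a number in the array's gene annotation were taken, which gave 37 of the 19938 genes measured. They were 10 Hoxa, 9 Hoxb, 9 Hoxc and 9 Hoxd genes, each with 1 probe set. By number, 7 were anterior (1 to 3), 14 central (4 to 8) and 16 posterior (9 to 13). Hoxb8 appears only on a probe set shared with Hoxb7 and was not included.

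The study delivered Hand2, Nkx2.5, Gata4, Mef2C and Tbx5, 5 cardiac transcription factors (5F), to mouse fibroblasts and tested how TGFβ signalling changes their conversion to cardiomyocyte-like cells. The 27 cultures formed 9 groups of 3, and the total RNA of each was hybridised to its own Affymetrix Mouse Gene 1.0 ST array. Mouse embryonic fibroblasts (MEFs) without the factors (0F) or with 5F, and cardiac fibroblasts (CFs) of adult mice with 5F, were each cultured with the DMSO vehicle, with SB431542 (SB), an inhibitor of the TGFβ type I receptor kinase, or with TGFβ1 at 2 ng/mL. MEFs received 0.5 µM of SB and CFs received 5 µM. The compounds were added at Day -1, and cells were collected at Day 3 after induction with 2 µg/mL doxycycline, the drug that switches the factor vectors on. By the protocols, cells first received lentiviruses carrying rtTA, the doxycycline-dependent activator, and a Troponin T-GCaMP reporter, a calcium sensor driven by a cardiac promoter. The labels describe the 0F cultures as receiving an empty vector in one field and as not transduced in another, and the protocol text of the CF cultures describes MEFs. The MEFs came from embryos of mixed background whose head and internal organs, heart included, had been removed, and CFs were outgrown from heart tissue. There was no 0F group of CFs. The labels call the replicates independent biological replicates.

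Arrays of the 2 cell types were on different scales. The median of all probe sets was 7.83 to 7.91 on the 18 MEF arrays and 7.36 to 7.43 on the 9 CF arrays, in log2 units. With 5F and DMSO, the median gene differed by -0.44 between CFs and MEFs as deposited and by 0.05 once each array was centred on its median. Comparisons of the cell types below therefore use centred values. The Y-linked Kdm5d lay between 9.54 and 9.94 in MEFs but between 5.57 and 5.65 in CFs, so the cells differed in sex as well as in age and tissue, and these cannot be told apart. Of the markers of other cell types, 12 endothelial genes averaged 7.18 to 7.66 in MEFs and 9.22 to 10.96 in CFs. In each MEF group 8 to 10 of these 12 were dim on all its arrays, against none in the CF groups, where dim means under the 40th percentile of the array. In bulk RNA, fewer cells of a type and less RNA per cell cannot be told apart.

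1 CF culture stood apart. Replicate 3 of 5F with SB had an endothelial marker mean of 9.22, against 10.96 in both other cultures of its group. Its 10 fibroblast markers averaged 11.36 against 10.74 in both, and its 4 epicardial markers averaged 9.50 against 8.26 and 8.28. Among the Hox genes, 8 were lower by more than 0.5 in this culture than the mean of the other 2, while 5.70% of all genes were. These 8 were Hoxa2, Hoxa3, Hoxa5, Hoxa6, Hoxa7, Hoxb2, Hoxb3 and Hoxb4, and Hoxb9 was the 1 that was higher by more than 0.5. Results that rest on this culture are given with and without it.

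The first question was which positional code each cell type carried with 5F. CFs without the factors were not measured. A difference between the cell types therefore cannot be told apart from an unlike response to the factors. In 5F cultures with DMSO, 22 of the 37 Hox genes differed between CFs and MEFs, where a call needs an adjusted p under 0.05 in limma and a fold of at least 1.5. The background over all 19938 genes was 13.2% called. The differences followed the position in the cluster. Of the 7 higher in CFs (6.88% of all genes were), none had a number above 5, and all were Hoxa or Hoxb. Of the 15 lower in CFs (6.32% of all genes), none had a number below 5. All of the 4 posterior Hoxa genes, 1 of 2 posterior Hoxb genes, 2 of 5 posterior Hoxc genes and 4 of 5 posterior Hoxd genes were among them. The median difference was 0.85 for the anterior genes, -0.08 for the central ones and -1.53 for the posterior ones, beside 0.05 for all genes.

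**Figure D1:**
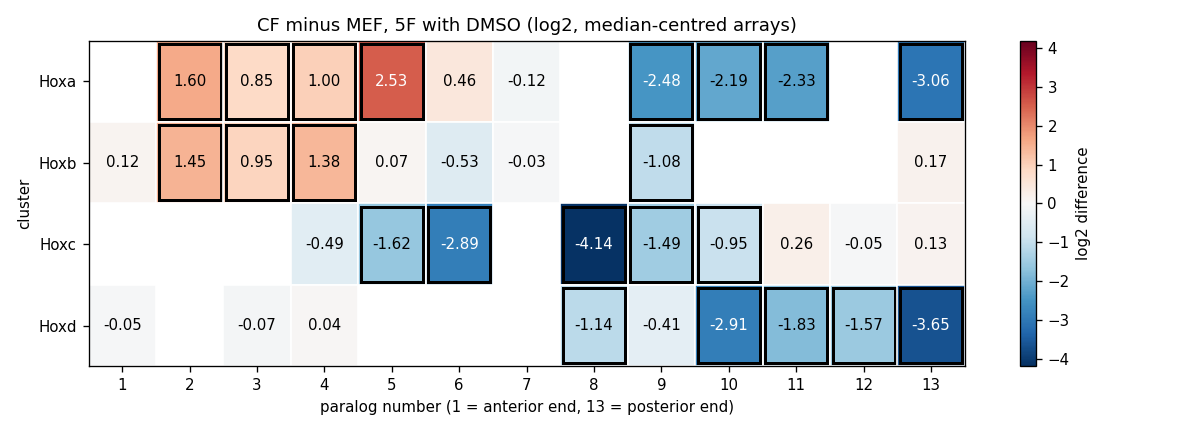
Log2 difference of CF minus MEF (5F, DMSO, median-centred arrays, n = 3 each) for each Hox gene, by cluster (rows) and number within the cluster (columns); the number is printed in each cell and black frames mark the 22 called genes. Blank cells are positions with no gene measured. Warm cells sit at Hoxa2 to Hoxa5 and Hoxb2 to Hoxb4, and the strongest blue cells are Hoxc8 at -4.14 and Hoxd13 at -3.65.

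Hoxa5, which patterns the lower neck and upper thorax and the lung, had the largest difference among the genes higher in CFs. As deposited it was at 10.20, 10.15 and 10.13 in the CFs and at 7.99, 8.23 and 8.11 in the MEFs, with no overlap. On centred values it was 2.53 ± 0.40 higher (SE, adjusted p = 1.10e-05 in limma), a fold of 5.79. Hoxa2 and Hoxb2, which act in the hindbrain and pharyngeal arches, were 1.60 ± 0.18 and 1.45 ± 0.17 higher (adjusted p = 1.08e-07 and 1.49e-07 in limma). Hoxa2 and Hoxa3 were dim on all 18 MEF arrays, so their MEF level cannot be told from background and their differences may be understated. Hoxb4, known for its action on blood stem cells, was at 8.83, 8.66 and 8.70 in CFs and at 7.89, 7.79 and 7.81 in MEFs as deposited, and was 1.38 ± 0.20 higher on centred values. Hoxa3 and Hoxb3, genes of the hindbrain and pharyngeal organs, were 0.85 and 0.95 higher, and Hoxa4, a gene of the neck vertebrae, was 1.00 higher. The other 3 anterior genes, Hoxb1, Hoxd1 and Hoxd3, lay at 0.12, -0.05 and -0.07 and were not called.

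In the opposite direction, Hoxc8, a gene of the thoracic and brachial trunk, had the largest difference of all the Hox genes. It was at 10.94, 10.81 and 10.78 in MEFs and at 6.02, 6.42 and 6.24 in CFs as deposited. On centred values it was -4.14 ± 0.091 in CFs (adjusted p = 7.56e-20 in limma), or 17.6-fold lower. Its neighbours in the cluster were lower too, Hoxc6 by a fold of 7.40, Hoxc5 by 3.07, Hoxc9 by 2.81 and Hoxc10 by 1.93. Hoxa13 and Hoxd13, which shape digits and the urogenital tract, were the next examples. Hoxd13 was at 10.49, 10.61 and 10.57 in MEFs and at 6.27, 6.62 and 6.38 in CFs as deposited, which made it 12.5-fold lower on centred values (adjusted p = 6.13e-21 in limma). Hoxa13 was at 9.90, 9.97 and 9.87 in MEFs and at 6.31, 6.46 and 6.35 in CFs, and was 8.31-fold lower (adjusted p = 3.99e-22 in limma). The groups did not overlap for any of these genes. Hoxd10 at -2.91, Hoxa9 at -2.48, Hoxa11 at -2.33 and Hoxa10 at -2.19 belonged to the same group, as did Hoxd11, Hoxd12, Hoxd8 and Hoxb9, at -1.83, -1.57, -1.14 and -1.08. Among them are genes of the limb, the lower trunk and the reproductive tract, while Hoxb9 acts on the thoracic ribs.

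Many Hox probe sets were near the bottom of the CF arrays. On all 9 CF arrays 23 of the 37 genes were dim, among them all 9 Hoxc genes and 14 of the 16 posterior genes, while 9 were dim on all 18 MEF arrays and 7 on every array of both. A dim probe set cannot be told from background, so the folds of genes lower in CFs may be understated. On the deposited scale, without centring, 4 genes were called higher and 19 lower, instead of 7 and 15. The difference between cell types held with TGFβ1 in both, where 7 genes were higher and 16 lower, against 11.3% of all genes called. The same 22 genes were called there, joined by Hoxd9 at -0.82. In that comparison Hoxa5 was 2.14 higher and Hoxc8 was -4.37. Hoxc6, Hoxd13, Hoxd10 and Hoxa13 were at -3.08, -2.97, -2.82 and -2.42. The endothelial markers moved with the genes higher in CFs. The 10 fibroblast markers moved with the genes lower in CFs, from 12.57 to 12.59 in 5F MEFs with DMSO and from 10.78 to 10.86 in CFs, as deposited. The part of neither in these differences was tested.

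**Figure D2:**
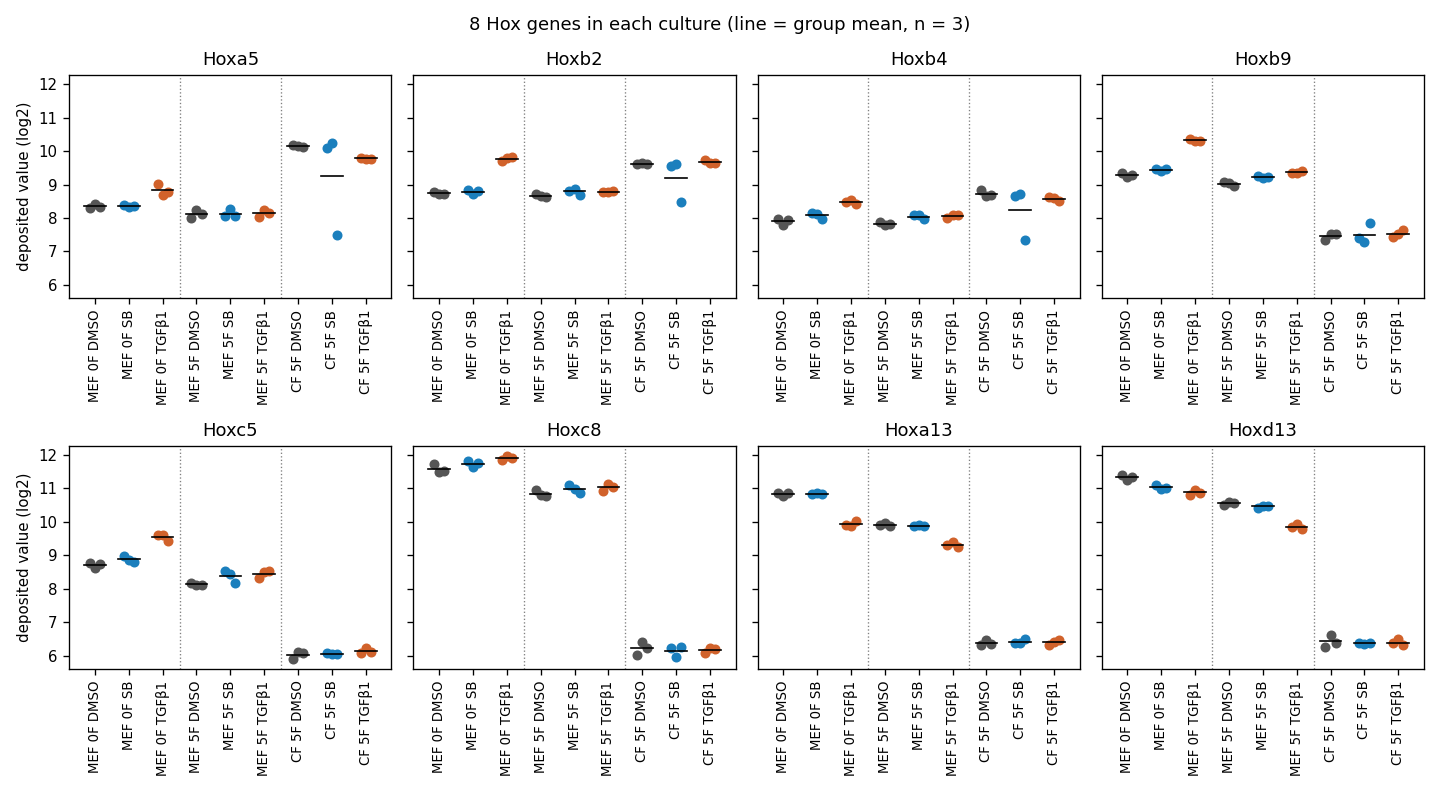
Deposited log2 values of 8 Hox genes in every culture (points, 3 per group; line, group mean; vertical dotted lines separate 0F MEFs, 5F MEFs and 5F CFs). Hoxa5 sits higher in CFs than in MEFs except in SB replicate 3, Hoxb4 in CFs overlaps the 0F MEFs with TGFβ1, and Hoxc5, Hoxc8, Hoxa13 and Hoxd13 lie between 5.91 and 6.62 in every CF culture.

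The promoters of 4 of these genes are shown as examples of genes higher and lower in CFs, chosen after their values were seen. RefSeq promoter windows (GRCm38.p6) were held for 22 Hox symbols, of which all but Hoxb8 are members. The 250 bases before the annotated start are printed 5′ to 3′ on the gene's strand. Capitals mark matches on either strand to 1 of 5 motifs. These were TATAAA for the core promoter element of that name and CCAAT for the element bound by NF-Y. For SMAD proteins the letters searched were CAGACA, for Gata factors they were AGATAA, and for T-box factors they were AGGTGT. Hoxa5 and Hoxb4 were higher in CFs, at chr6:52204588-52204837 (minus strand) and chr11:96318017-96318266 (plus strand), and Hoxa13 and Hoxd13 were lower, at chr6:52260881-52261130 (minus strand) and chr2:74667975-74668224 (plus strand).
Hoxa5: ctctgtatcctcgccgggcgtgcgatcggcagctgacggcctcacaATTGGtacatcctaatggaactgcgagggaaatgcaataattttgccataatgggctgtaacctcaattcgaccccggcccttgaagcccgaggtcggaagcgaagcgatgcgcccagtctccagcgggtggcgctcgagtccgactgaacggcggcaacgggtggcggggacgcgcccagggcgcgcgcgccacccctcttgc
Hoxb4: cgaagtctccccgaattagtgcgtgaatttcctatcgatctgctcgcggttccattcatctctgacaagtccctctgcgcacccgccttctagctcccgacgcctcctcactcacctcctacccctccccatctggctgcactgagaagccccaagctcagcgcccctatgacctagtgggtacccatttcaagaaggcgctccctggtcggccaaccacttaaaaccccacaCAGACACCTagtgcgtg
Hoxa13: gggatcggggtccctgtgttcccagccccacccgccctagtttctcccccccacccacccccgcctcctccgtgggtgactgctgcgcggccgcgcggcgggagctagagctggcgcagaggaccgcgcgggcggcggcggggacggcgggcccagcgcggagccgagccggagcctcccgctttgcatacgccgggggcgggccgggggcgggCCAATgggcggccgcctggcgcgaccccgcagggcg
Hoxd13: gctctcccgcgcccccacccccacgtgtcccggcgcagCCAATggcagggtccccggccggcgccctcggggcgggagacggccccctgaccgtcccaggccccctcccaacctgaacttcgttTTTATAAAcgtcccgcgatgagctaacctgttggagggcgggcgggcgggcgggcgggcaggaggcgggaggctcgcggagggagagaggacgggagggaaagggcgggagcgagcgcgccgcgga
In Hoxb4 the CAGACA and the reversed AGGTGT overlap, and in Hoxd13 the TATAAA is read on both strands over overlapping bases. The G and C content was 63.6% for Hoxa5 and 58.0% for Hoxb4, and 80.0% for Hoxa13 and 74.4% for Hoxd13. Its median was 59.2% over the 24 Hox windows and 52.4% over all 32851. These 4 chosen genes cannot show whether it differs between genes higher and lower in CFs. Over all 24 windows of Hox genes, 14 (58.3%) held CCAAT, against 33.8% of 32851 windows of all genes. TATAAA was in 16.7% of the Hox windows and 12.4% of all, CAGACA in 12.5% and 17.1%, and AGGTGT in 12.5% and 11.8%. AGATAA was in none of the 24 and in 9.99% of all windows. A match is a run of letters and no evidence of a bound site.

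The second question was whether the 5 factors change the code within MEFs. With DMSO, 5 Hox genes were lower in 5F than in 0F MEFs and none was higher (9.08% of all genes called). Hoxa13 was at 10.86, 10.78 and 10.87 without the factors and at 9.90, 9.97 and 9.87 with them. It fell by 0.93 (SE 0.046, adjusted p = 1.49e-11 in limma). Hoxd13 fell by 0.78, Hoxc8 by 0.74, Hoxd8 by 0.69 and Hoxa10 by 0.66, each with no overlap between the groups. Hoxc9 was at -0.58, past the adjusted p and just under the fold. The shift went beyond the called genes. By adjusted p alone 25 of 37 were lower, beside 18.9% of all genes, and 1 was higher, Hoxa7 by 0.21. The median Hox difference was -0.24, against -0.01 for all genes. Of the posterior genes 11 of 16 were lower by adjusted p alone, and of the Hoxb genes 4 of 9. The fall was not particular to posterior genes. Lower by adjusted p were also central genes such as Hoxc5 at -0.57 and Hoxd4 at -0.54. So were anterior genes such as Hoxb3 at -0.32 and Hoxa3 at -0.29. No test compared the regions.

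Under the other treatments the same direction was seen. With SB, 3 genes fell (9.85% of all genes called, a share near that of the Hox genes). Hoxa13 fell by 0.95, Hoxc8 by 0.76 and Hoxc9 by 0.66. By adjusted p alone 25 were lower (20.1% of all genes), and Hoxa7 and Hoxc13 were higher, by 0.30 and 0.20. Hoxc10 and Hoxd13 were at -0.52 and -0.58 and missed the fold. With TGFβ1, 12 fell and none rose (10.3% of all genes called), with 27 lower by adjusted p alone (23.6% of all genes). Higher by adjusted p alone were Hoxa7, Hoxc13 and Hoxd9, by 0.26, 0.18 and 0.30. Hoxc5 and Hoxd12 both fell by 1.10, Hoxd13 by 1.02, Hoxb2 by 0.98 and Hoxb9 by 0.95. The remaining 7 were Hoxc8, Hoxa11, Hoxc10, Hoxa10, Hoxa5, Hoxd10 and Hoxa13, from -0.88 to -0.62. Hoxa13 and Hoxc8 were thus called under all 3 treatments. The comparisons with DMSO, SB and TGFβ1 use different cultures on both sides.

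**Figure D3:**
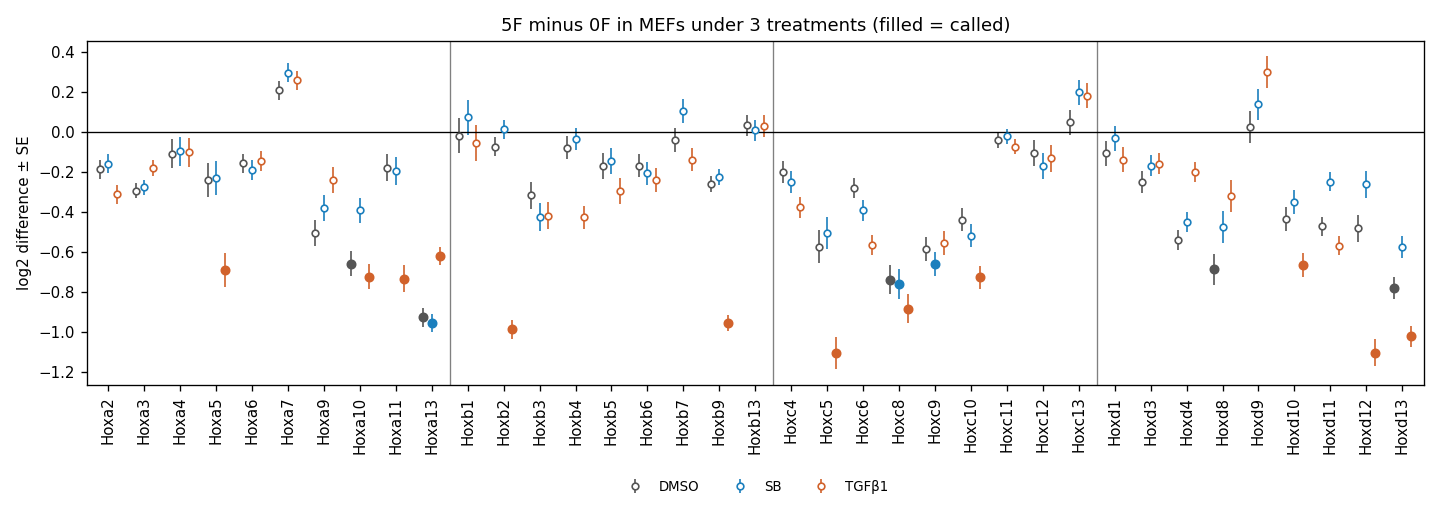
Log2 difference of 5F minus 0F MEFs ± SE for the 37 Hox genes under DMSO (grey), SB (blue) and TGFβ1 (orange), ordered by cluster and number; filled points are called genes. Most points lie below 0, the lowest being Hoxc5 and Hoxd12 with TGFβ1 at -1.10. Hoxa7, Hoxb13, Hoxc13 and Hoxd9 lie above 0 under all 3 treatments.

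Hoxa7, which patterns the thoracic vertebrae, moved against its neighbours. It was at 9.25, 9.28 and 9.22 in 0F and at 9.45, 9.42 and 9.50 in 5F cultures with DMSO, without overlap, but its difference was under the fold threshold. Markers of other cell types moved with the factors. The 7 cardiomyocyte markers averaged 7.67 to 8.05 in 0F MEFs and 10.15 to 11.20 in 5F MEFs, and the 10 fibroblast markers averaged 12.53 to 13.15 and 11.90 to 12.59. Among the delivered factors, Hand2 was 2.48 ± 0.059 higher in 5F with DMSO and Tbx5 was -0.94 ± 0.073, while the differences of Nkx2-5, Gata4 and Mef2c were 0.01, 0.35 and -0.57. The mouse probe sets need not match the delivered sequences, for which the methods name human assays except for Hand2. The part of these shifts in the Hox differences was not tested.

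The third question was whether TGFβ signalling changes the code. In 0F MEFs, TGFβ1 raised 4 Hox genes and lowered 1 (10.4% of all genes called). Hoxb9, which acts on the thoracic ribs, was at 9.33, 9.23 and 9.29 with DMSO and at 10.37, 10.29 and 10.31 with TGFβ1, a rise of 1.04 ± 0.040 (adjusted p = 4.25e-13 in limma). Hoxb2 went from 8.77, 8.72 and 8.73 to 9.69, 9.78 and 9.81, a rise of 1.02 ± 0.047 (adjusted p = 4.85e-12 in limma). Hoxc5 rose by 0.84 and Hoxc6 by 0.59, the latter at the edge of the fold threshold, while Hoxb4 at 0.57 and Hoxc10 at 0.52 passed the adjusted p and missed the fold. Hoxa13 went the other way, to 9.90, 9.89 and 10.03, and fell by 0.90 (SE 0.046). For all 5 genes the groups did not overlap.

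By adjusted p alone 20 Hox genes were higher (27.5% of all genes) and 7 lower (19.4% of all genes). All 9 Hoxb and all 9 Hoxc genes had positive differences, of which 6 and 7 passed, and none of them was lower. Hoxa and Hoxd genes went both ways. The 7 higher were Hoxa2, Hoxa5, Hoxa6, Hoxa7, Hoxa11, Hoxd10 and Hoxd12, and the 7 lower were Hoxa3, Hoxa9, Hoxa10, Hoxa13, Hoxd4, Hoxd8 and Hoxd13. No test compared the clusters. Posterior genes went both ways even within a cluster, as Hoxa11 was 0.33 higher while Hoxa13 was lower, and Hoxd12 was at 0.42 while Hoxd13 was at -0.45. The smooth muscle markers, 4 genes, averaged 10.36 to 10.41 with DMSO and 11.80 to 11.99 with TGFβ1, and fibroblast markers 13.05 to 13.11 and 12.53 to 12.64. Their part was not tested.

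In 5F MEFs, TGFβ1 lowered 2 Hox genes and raised none (5.77% of all genes called, a share near that of the Hox genes). Hoxd13 went from 10.49, 10.61 and 10.57 to 9.85, 9.95 and 9.78 and fell by 0.70, and Hoxa13 went to 9.31, 9.40 and 9.24 and fell by 0.59. The fall of Hoxa13 was just past the fold and missed it at -0.57 under quantile normalization and under median centring, at -0.56 without DMSO replicate 2 and at -0.55 without TGFβ1 replicate 3. In 0F MEFs Hoxd13 had been at -0.45, past the adjusted p but under the fold. The fibroblast markers averaged 12.57 to 12.59 with DMSO and 11.90 to 11.99 with TGFβ1 in 5F MEFs, and the smooth muscle markers 11.31 to 11.42 and 11.74 to 11.84, and their part was not tested. Hoxa10, Hoxc13 and Hoxb9 were at -0.38, 0.37 and 0.35 and missed the fold. By adjusted p alone 11 genes were higher (21.5% of all genes) and 6 lower (14.3% of all genes).

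The difference between the 2 responses was itself tested, and 3 genes were called, all with a lower TGFβ1 effect in 5F MEFs. Of all genes 7.45% were called, a share near that of the Hox genes. Hoxb2 rose by 1.02 in 0F but was at 0.11 in 5F MEFs, where its cultures were at 8.70, 8.65 and 8.64 with DMSO and at 8.77, 8.77 and 8.80 with TGFβ1. The difference of effects was -0.91 ± 0.067 (adjusted p = 1.01e-08 in limma). For Hoxb9 the effects were 1.04 and 0.35, with a difference of -0.69. Hoxd12, a gene of the digits, was at 8.54, 8.64 and 8.68 with DMSO and 9.01, 9.01 and 9.11 with TGFβ1 in 0F MEFs, and at 8.20, 8.14 and 8.08 and then 8.0, 7.97 and 7.86 in 5F MEFs, a difference of -0.62. Hoxa11 and Hoxc5 followed at -0.55 and -0.53, past the adjusted p but under the fold. By adjusted p alone 14 Hox genes were called, beside 31.3% of all genes.

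**Figure D4:**
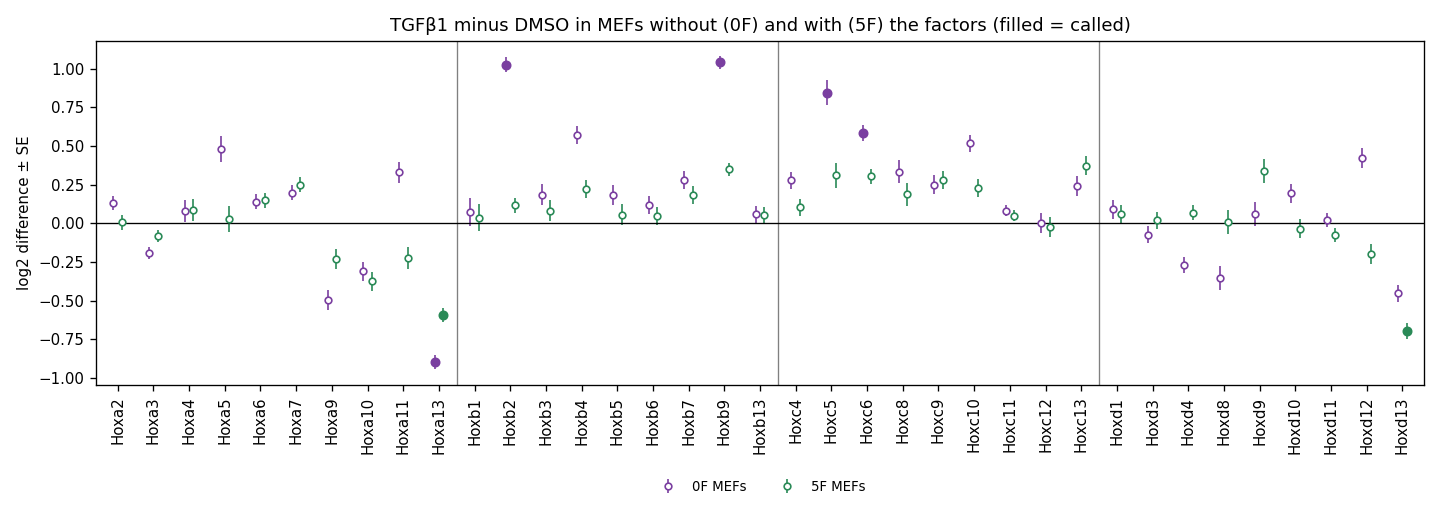
Log2 difference of TGFβ1 minus DMSO ± SE for the 37 Hox genes in 0F MEFs (purple) and 5F MEFs (green); filled points are called genes. In 0F MEFs Hoxb2, Hoxb9, Hoxc5 and Hoxc6 are filled above 0, and Hoxa13 is filled below 0 in both, at -0.90 and -0.59.

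With 0.5 µM SB in 0F MEFs no Hox gene was called by limma (2.40% of all genes were), and 14 of 37 had an unadjusted p under 0.05 (25.4% of all genes). By adjusted p alone there were 9 (16.6% of all genes), of which Hoxb9, Hoxc6, Hoxc9 and Hoxc10 were higher by 0.16 to 0.31, and Hoxa10, Hoxd10, Hoxd11, Hoxd12 and Hoxd13 were at -0.20 to -0.42. Hoxd12 was at 8.14, 8.24 and 8.23 with SB, under all 3 DMSO cultures, with a difference of -0.42 ± 0.067 (adjusted p = 0.000161 in limma). Beside TGFβ1, which was compared with the same DMSO cultures, Hoxd12 was at -0.42 with SB and 0.42 with TGFβ1, and Hoxc6 at 0.31 and 0.59. The adipocyte markers, 5 genes, averaged 7.30 to 7.37 with DMSO and 10.88 to 10.98 with SB in these cells, and their part was not tested.

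In 5F MEFs SB also gave no call (0.823% of all genes called), with 16 Hox genes at an unadjusted p under 0.05 (17.4% of all genes). By adjusted p alone 4 genes were higher (3.34% of all genes), Hoxb4 by 0.21, Hoxb9 by 0.20, Hoxc6 by 0.19 and Hoxd4 by 0.18. Hoxc5 had the largest difference, 0.25 ± 0.081, with an adjusted p of 0.0812 in limma. Hoxd12 was at -0.20 and did not pass the adjusted p. The SB effect differed between 5F and 0F MEFs for no Hox gene (1.96% of all genes called, 8.43% by adjusted p alone), with 4 at an unadjusted p under 0.05 (18.1% of all genes), and the largest difference of effects was 0.27 ± 0.088 for Hoxa10 (adjusted p = 0.0797 in limma). Next came Hoxd11, Hoxd12, Hoxd8 and Hoxd13, at 0.22, 0.22, 0.21 and 0.20, also not past the adjusted p. Of 7 measured targets of TGFβ signalling, SB lowered 4 in 0F MEFs and 3 in 5F MEFs and raised none. TGFβ1 raised 3 and lowered 1, Tgfbi at -1.48, in 0F MEFs, and none of the 7 was called with TGFβ1 in 5F MEFs, where the highest was at 0.49. Ccn2, a matricellular protein gene induced by the pathway, was -1.84 with SB in 0F MEFs and -1.24 in 5F MEFs, and 1.05 with TGFβ1 in 0F MEFs.

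In 5F CFs neither compound gave a called Hox gene in the limma fit of all 9 cultures, at a fold of at least 1.25. With TGFβ1 5.32% of all genes were called, and 1 Hox gene had an unadjusted p under 0.05 (21.7% of all genes). With 5 µM SB 0.241% of all genes were called, and 2 Hox genes had an unadjusted p under 0.05 (6.22% of all genes). Of the 7 measured targets of TGFβ signalling, this fit called 1 lower with SB and 5 higher with TGFβ1. SB replicate 3 widened the spread of several low-numbered genes in this fit. Hoxa5 was at 10.08 and 10.23 in the other SB cultures and at 7.48 in replicate 3, so its SE was 0.63 and its SB difference of -0.89 had an adjusted p of 0.944 in limma. Hoxb4, Hoxa6, Hoxb2 and Hoxb3 were at -0.49, -0.45, -0.42 and -0.37 with SB in the same fit and did not pass the adjusted p. Without replicate 3 the SB difference of Hoxa5 was 0.00 ± 0.051, and no Hox gene was called for SB, while 1.89% of all genes were.

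Without that culture, 2 Hox genes were called for TGFβ1, while 10.8% of all genes were, a larger share than that of the Hox genes. Leaving the culture out was chosen after seeing the data. Hoxa5 was at 10.20, 10.15 and 10.13 with DMSO and at 9.81, 9.78 and 9.76 with TGFβ1, and fell by 0.38 (SE 0.045, adjusted p = 0.00063 in limma). Hoxa2 was at 8.37, 8.31 and 8.40 and then at 7.79, 7.88 and 8.02, and fell by 0.46 (SE 0.062, adjusted p = 0.00112 in limma). Neither gene's groups overlapped. With all 9 cultures the same differences had adjusted p of 0.834 and 0.426. Hoxa4, Hoxa3 and Hoxa6 were at -0.31, -0.23 and -0.20, under the fold, and Hoxb2, Hoxb3 and Hoxb4 were at 0.03, 0.04 and -0.15. The endothelial marker mean moved with Hoxa2 and Hoxa5, from 10.72 to 10.78 with DMSO to 10.04 to 10.08 with TGFβ1, and its part was not tested. The 16 posterior genes stayed between -0.12 and 0.17 with TGFβ1, but 14 of them were dim on every CF array, so a fall there may not have been measurable.

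**Figure D5:**
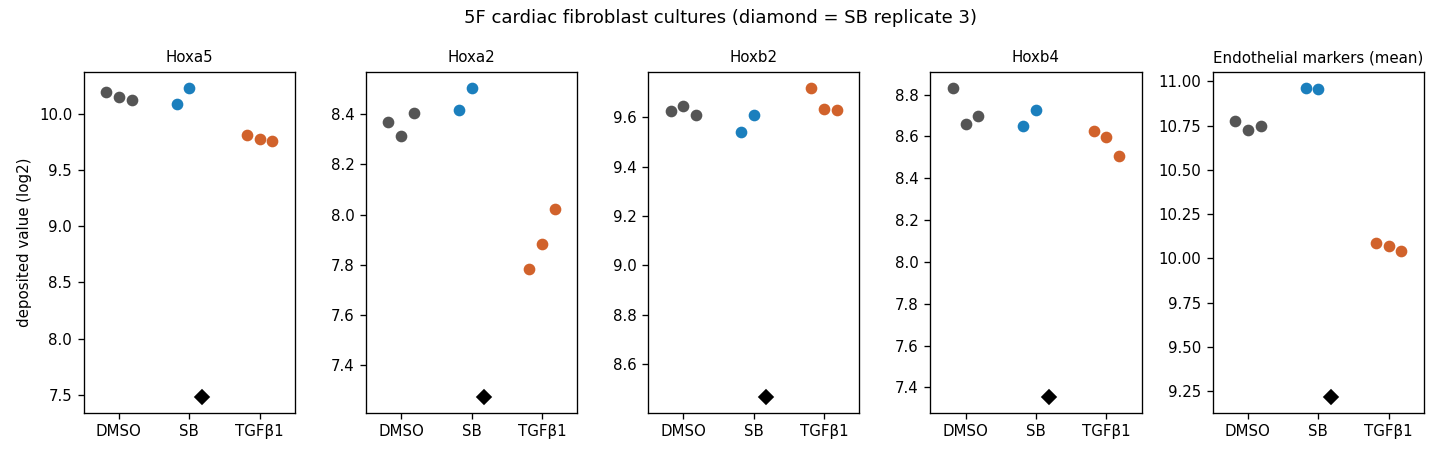
Deposited log2 values of Hoxa5, Hoxa2, Hoxb2, Hoxb4 and the mean of 12 endothelial markers in each 5F CF culture with DMSO, SB or TGFβ1; the vertical axes differ. The black diamond, SB replicate 3, is the lowest point in every panel, and Hoxa5, Hoxa2 and the endothelial mean are lower with TGFβ1 than with DMSO.

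Over the 6 MEF groups Hoxa13 had the widest range, 1.52, from SB without factors to TGFβ1 with 5F, and Hoxb13 the narrowest, 0.086, being dim on every array. Over the 3 CF groups Hoxa5 had the widest, 0.89, and Hoxa11, dim on all 9 CF arrays, the narrowest, 0.022. Without SB replicate 3 the widest was Hoxa2 at 0.56, followed by Hoxa5 at 0.38, and the narrowest was Hoxd8 at 0.020.

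Hox proteins bind DNA together with the Pbx, Meis and Pknox homeodomain cofactors, of which 8 of 9 were measured. In 5F MEFs with DMSO 2 were lower and none higher (9.08% of all genes called), Meis1 at -1.00 ± 0.052 and Meis2 at -1.13 ± 0.065. The same pair was called with SB and with TGFβ1 (9.85% and 10.3% of all genes). With TGFβ1 in 0F MEFs 3 were lower (10.4% of all genes called), Pbx3 at -0.98, Meis2 at -0.62 and Pknox2 at -0.59. In 5F MEFs with TGFβ1 Pbx3 alone was called, at -0.68 (5.77% of all genes). In CFs against MEFs with DMSO 2 were higher (13.2% of all genes called), Meis2 by 1.98 and Pknox2 by 0.69. With TGFβ1 in CFs Meis1 was at -0.43 (5.32% of all genes called). SB gave no called cofactor in either cell type (0.241% to 2.40% of all genes called).

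Non-coding genes lie between the Hox genes, and 9 of the 16 listed were measured. Between CFs and MEFs 3 were called with DMSO (13.2% of all genes), and the same 3 with TGFβ1 (11.3% of all genes). Hottip, a transcript next to Hoxa13, was at -1.15 ± 0.066, and Hoxaas2, an antisense transcript of the Hoxa cluster, was at 1.87 ± 0.15. Mir196a-1, which lies in the Hoxb cluster, was at -0.89 ± 0.062. The array reads the precursor region, so this is no measure of the mature miRNA. None of the 9 was called for the factors or for a compound (0.241% to 10.4% of all genes called). The 4 mature miRNAs of the clusters that belong to the miR-10 and miR-196 families are printed from RefSeq (GRCm38.p6), 5′ to 3′, with the seed (bases 2 to 8) in capitals. They are shown because they are the products of the intergenic genes measured beside the Hox genes.
miR-10a-5p: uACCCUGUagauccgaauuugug
miR-10b-5p: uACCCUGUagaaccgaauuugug
miR-196a-5p: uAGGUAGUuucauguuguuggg
miR-196b-5p: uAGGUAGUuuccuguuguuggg
miR-10a and miR-10b share the seed ACCCUGU and lie at chr11:96317186-96317208 and chr2:74726074-74726096, both on the plus strand. miR-196a and miR-196b share AGGUAGU. miR-196a is read from Mir196a-1 at chr11:96265187-96265208 and Mir196a-2 at chr15:102973365-102973386 (plus strands), and miR-196b from chr6:52230129-52230150 on the minus strand. Mir10a, Mir10b, Mir196a-2 and Mir196b differed by 0.14, -0.01, -0.02 and -0.49 between CFs and MEFs with DMSO and were not called.

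Polycomb proteins keep Hox genes silent. Of 14 measured members none was called for 5F with DMSO (9.08% of all genes called). Jarid2 was at -0.86 with TGFβ1 in 0F MEFs and at -0.98 for 5F with SB. It was 7.14% of the 14 both times, beside 10.4% and 9.85% of all genes called. Ezh1 and Cbx7 were 0.62 and 0.59 higher for 5F with TGFβ1 (14.3% of the 14, beside 10.3% of all genes). For the difference of TGFβ1 effects, Jarid2 and Ezh1 were called at 0.82 and 0.68 (14.3%, beside 7.45% of all genes). Between CFs and MEFs with DMSO 2 were higher, Cbx7 by 1.07 and Ezh1 by 0.87. These were 14.3% of the 14, a share near the 13.2% of all genes called. With TGFβ1 in both cell types Cbx7 alone was called, 0.69 higher in CFs (7.14%, beside 11.3% of all genes). Of 11 Cdx and trithorax genes, which activate Hox genes, Kdm6a alone was called, 0.70 higher in CFs with DMSO. It was 9.09% of the 11, beside 13.2% of all genes called. Of 11 genes next to the clusters, Skap2, beside Hoxa, was called. It was 0.94 higher with TGFβ1 in 0F MEFs and 1.19 and 0.63 higher in CFs with DMSO and with TGFβ1. Each time it was 9.09% of the 11, beside 10.4%, 13.2% and 11.3% of all genes called.

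Retinoic acid is the classical inducer of anterior Hox genes, and 16 of 17 genes of its synthesis and response were measured. In CFs against MEFs with DMSO 3 were higher and 2 lower (31.2% of the 16, beside 13.2% of all genes). The synthesis enzymes Aldh1a1 and Aldh1a2 were 3.65 and 2.18 higher and the degrading enzyme Cyp26b1 1.41 higher, while the binding proteins Crabp1 and Crabp2 were at -2.96 and -4.02. With TGFβ1 in 0F MEFs 3 rose and 2 fell (31.2% of the 16, beside 10.4% of all genes). The receptor gene Rarb rose by 2.21 ± 0.056, the retinaldehyde reductase Dhrs3 by 1.77 and Crabp2 by 1.68, while Rxra and Rara were at -0.76 and -0.62. The TGFβ1 effect on Rarb, Dhrs3 and Crabp2 was smaller in 5F MEFs, with differences of effects of -2.22, -1.54 and -1.64 (all called in limma). Aldh1a3 and Rxra were called in the other direction, at 1.45 and 0.68. Of the 16, 31.2% were called for the difference of TGFβ1 effects, beside 7.45% of all genes. In 5F against 0F MEFs with TGFβ1, 4 were higher and 3 lower (43.8%, beside 10.3% of all genes). With TGFβ1 in 5F CFs, 3 rose and 3 fell (37.5%, beside 5.32% of all genes). The same fit of all 9 CF cultures called no Hox gene.

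Other transcription factors with regional expression in mesenchyme also separated the cell types. Of 26 measured, 4 were higher and 11 lower in CFs with DMSO (57.7%, beside 13.2% of all genes). Tbx20, a heart factor, was 5.91 ± 0.085 higher, and Tbx4 and Pitx1, hindlimb factors, were at -2.50 and -1.36. Tbx15, Prrx1 and Lhx9, genes of trunk and limb mesenchyme, were at -2.98, -2.92 and -2.63. The factors lowered 9 of the 26 in MEFs with DMSO and raised 1 (38.5%, beside 9.08% of all genes). Emx2 was at -1.38, Foxc1 at -1.02 and Tbx4 at -0.95, and Foxc2 was 0.83 higher.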

How the data were processed

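Per the labels, total RNA of 27 mouse fibroblast cultures was hybridised to Affymetrix Mouse Gene 1.0 ST arrays. The authors deposited 1 log2 value for each of 35556 probe sets per array. The submitters' processing notes name MAS5, and further normalization is not given in the sources used here. The depth of an array is not a count, and precision is limited by 3 cultures per group.

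Probe sets with 1 gene symbol (21789) were kept, 1621 with several symbols and 12146 with none were left out, and a gene with several probe sets was represented by the one of highest mean. The 19938 genes were fitted with limma 3.58.1 in R 4.3.3 (lmFit and eBayes, 12 residual degrees of freedom in MEFs, 6 in CFs, 18 across cell types), with Benjamini-Hochberg adjustment over all genes. A call needs an adjusted p under 0.05 and a fold of 1.5, or 1.25 within CFs. Comparisons of cell types used arrays centred on their medians. No replicate block was used. The fits were tested on simulated data. Figures were drawn with matplotlib 3.10.9.

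Every Hox gene called in any comparison, the 5 with the largest differences of each, and those with the widest and narrowest range of group means were named. The Hox members and the lists (cofactors, non-coding genes, cluster neighbours, Cdx and trithorax, Polycomb, retinoic acid, regional mesenchyme factors, delivered factors, TGFβ targets and cell type markers) were chosen with earlier results of these data known. Alternatives were quantile normalization, median centring, the mean of probe sets, a filter on dim genes, other fold thresholds, array weights, an intensity trend, fits on the compared groups only, the replicate block and leaving out each culture.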

Additional observations from a re-analysis of the deposited data

Results flagged for a closer look

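The TGFβ1 effect differed between 5F and 0F MEFs by the limma test of the difference itself for 3 of the 37 Hox genes, while 7.45% of all genes were called, a share near that of the Hox genes. The difference of effects was -0.91 for Hoxb2 (adjusted p = 1.01e-08), -0.69 for Hoxb9 (adjusted p = 3.94e-08) and -0.62 for Hoxd12 (adjusted p = 5.71e-05). In all 3 genes the 3 TGFβ1 cultures lay above the 3 DMSO cultures without the factors. With 5F the TGFβ1 cultures lay above the DMSO cultures for Hoxb2 and Hoxb9 and below them for Hoxd12.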

How the results depend on the processing

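Among the differences of single Hox genes over all alternatives, 1751 kept their direction and side of the threshold, 41 gained a call, 21 lost it and 1 reversed. The reversed one was the SB difference of Hoxa5 in CFs, -0.89 with all cultures, and from -1.38 to 0.000583 when 1 culture was left out, the latter without SB replicate 3. Without a fold threshold the Hox calls were 26, 27 and 30 for 5F with DMSO, SB and TGFβ1, 27 and 17 for TGFβ1 in 0F and 5F MEFs, 9 and 4 for SB there, and 14 for the difference of TGFβ1 effects, beside 40.5%, 41.8%, 44.0%, 46.9%, 35.8%, 16.6%, 7.38% and 31.3% of all genes in that order. At a fold of 1.25 in MEFs they were 13 and 13 for 5F with DMSO and SB, 14 and 6 for TGFβ1 in 0F and 5F MEFs, 2 for SB in 0F MEFs and 9 for the difference of TGFβ1 effects, beside 19.9%, 20.9%, 22.9%, 14.7%, 6.40% and 18.6% of all genes. Quantile normalization and median centring each left 1 call for TGFβ1 in 5F MEFs, and centring gave 5 for the difference of TGFβ1 effects. For TGFβ1 in CFs, a fit on the compared groups gave 2 calls, array weights 3, and leaving out SB replicate 3, an alternative chosen after seeing the data, gave 2. That alternative left the 22 and 23 calls between cell types. Leaving out 1 culture of the compared groups gave 5 to 7, 3 to 4 and 11 to 14 calls for 5F with DMSO, SB and TGFβ1, 22 to 23 in both comparisons of CFs with MEFs, 4 to 6 and 1 to 2 for TGFβ1 in 0F and 5F MEFs (1 without DMSO replicate 2 or TGFβ1 replicate 3 of 5F), 2 to 4 for the difference of TGFβ1 effects, and 0 in the others.

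The labels number replicates 1 to 3 in every group, but 7 of 18 MEF arrays and 5 of 9 CF arrays correlated best with arrays of their own number, so the numbers were not taken to pair the samples. With the replicate block the counts were 5, 3 and 12 for 5F with DMSO, SB and TGFβ1, 5, 2 and 3 for TGFβ1 in 0F and 5F MEFs and their difference, 22 and 23 between cell types, and 0 in the others, the same as without it. Where not stated, the cause of a change was not tested. Dim probe sets limit what can be seen: a filter on them leaves 26 Hox genes in MEFs, 11 in CFs and 23 across both.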

Other observations

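The probe set shared by Hoxb8 and Hoxb7 cannot be given to either gene. Its group means in 0F MEFs were 7.84 with DMSO, 7.68 with SB and 8.12 with TGFβ1. In 5F MEFs they were 7.42, 7.54 and 7.67, and in 5F CFs 6.66, 6.70 and 6.73, as deposited.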
